A study of Mus musculus with 9 samples.

Results

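The regions described here are the promoters of 1984 protein-coding genes that gave very little RNA in mouse embryonic fibroblasts (MEFs) and whose start lay more than 5 kb from every other gene start in the RNA table. The genes were selected on their RNA values: the mean spike-in normalized FPK (fragments per kilobase) over the 4 RNA libraries was under 0.01. Of 19769 genes in the RNA table, 15118 were protein-coding, 2311 of these were under the limit, and 327 were dropped for a neighbouring start. The limit falls within a continuous range of levels. Prph, Ppp3r2 and Hpgd were the genes just inside it, with means of 0.009984, 0.009986 and 0.009997, and Megf6, Mthfs and Gm36210 were just outside, at 0.01002, 0.01005 and 0.01006. None of these 6 promoters held a read of the accessibility table.

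RNA was sequenced from primary Myc-Egfp+/+ MEFs, in which MYC is fused to GFP. The cells received 20 µM of the proteasome inhibitor MG-132 for 6 h, were sorted for low or high GFP and gave 2 technical replicates each of low-MYC and high-MYC cells. TACh-seq, in which nuclei are cut briefly with the nuclease Cyanase (3 min) so that open chromatin is released, was made from WT and KOKD MEFs (2 samples each). WT stands for wild type, and KOKD for Fubp1 knockout MEFs in which Fubp2 was knocked down by siRNA. Wild-type and Fubp1 knockout MEFs had been transfected with 100 nM of Fubp2 or non-target siRNA for 48 h. FUBP1 ChIP-seq came from 1 sample of MEFs at steady state. RNA and accessibility were thus measured in MEFs that had been handled differently. All 4 TACh-seq samples point to 1 read table, labelled wt1, in which no column names a library. WT and KOKD MEFs were therefore not compared, and the table is described as a single measurement without replicates. It held 4881417 reads in 26043 islands that together covered 77809102 bases. A promoter without reads is therefore one outside these islands, and weaker cutting there would not be seen.

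A promoter is the stretch of DNA around a gene start where the transcription machinery assembles. Nucleosomes usually cover the promoters of silent genes, whereas at active genes a gap opens just upstream of the start and a nuclease can cut there. Many mammalian promoters lie in CpG islands, stretches in which the dinucleotide CG has not been lost, and such promoters are often open, or held by Polycomb proteins, in cells that do not use the gene. An open promoter usually precedes transcription and can exist without it.

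Promoters of 3 gene classes are printed in open and closed pairs because they show what the results below turn on: CG-dense and CG-poor sequence occurs in both states. Each line gives the 250 bases upstream of the RefSeq start (GRCm38.p6), 5′ to 3′ on the gene's strand, with every CG in capitals. Zpbp2 (chr11:98550847-98551096, + strand) encodes a zona pellucida-binding protein of sperm and had 141 TACh-seq reads within 1 kb of its start. Sycp1 (chr3:102936101-102936350, − strand), a protein of the synaptonemal complex in meiosis, had 0 reads. Grm8 (chr6:28135147-28135396, − strand), a metabotropic glutamate receptor, had 170 reads and Kcnh1 (chr1:192190527-192190776, + strand), a potassium channel, had 0. Casq1 (chr1:172219896-172220145, − strand), the calcium-binding calsequestrin of skeletal muscle, had 103 reads and Ttn (chr2:76982548-76982797, − strand), the giant sarcomere protein titin, had 0.
Zpbp2: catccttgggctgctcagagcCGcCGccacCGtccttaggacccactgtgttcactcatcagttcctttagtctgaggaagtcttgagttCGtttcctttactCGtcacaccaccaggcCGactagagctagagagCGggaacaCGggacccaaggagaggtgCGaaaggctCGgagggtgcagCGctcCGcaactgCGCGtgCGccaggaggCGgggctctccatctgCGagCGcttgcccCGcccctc
Sycp1: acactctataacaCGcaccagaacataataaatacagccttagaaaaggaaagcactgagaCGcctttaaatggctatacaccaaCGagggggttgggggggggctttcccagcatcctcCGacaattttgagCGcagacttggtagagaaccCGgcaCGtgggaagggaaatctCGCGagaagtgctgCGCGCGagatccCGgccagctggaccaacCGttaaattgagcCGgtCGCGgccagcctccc
Grm8: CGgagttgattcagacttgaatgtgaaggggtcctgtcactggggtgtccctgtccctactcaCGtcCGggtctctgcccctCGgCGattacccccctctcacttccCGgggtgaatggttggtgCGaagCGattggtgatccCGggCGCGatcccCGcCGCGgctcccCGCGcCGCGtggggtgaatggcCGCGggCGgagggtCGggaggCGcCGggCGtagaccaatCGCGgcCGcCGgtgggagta
Kcnh1: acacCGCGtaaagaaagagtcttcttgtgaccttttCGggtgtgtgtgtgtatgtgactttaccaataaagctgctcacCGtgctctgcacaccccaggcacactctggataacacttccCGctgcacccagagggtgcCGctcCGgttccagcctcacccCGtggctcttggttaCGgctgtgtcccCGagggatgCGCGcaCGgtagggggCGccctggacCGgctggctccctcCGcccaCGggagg
Casq1: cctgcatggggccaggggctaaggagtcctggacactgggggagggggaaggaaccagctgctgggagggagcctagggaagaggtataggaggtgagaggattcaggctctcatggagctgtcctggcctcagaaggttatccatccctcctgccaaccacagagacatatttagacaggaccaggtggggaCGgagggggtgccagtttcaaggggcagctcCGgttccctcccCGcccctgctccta
Ttn: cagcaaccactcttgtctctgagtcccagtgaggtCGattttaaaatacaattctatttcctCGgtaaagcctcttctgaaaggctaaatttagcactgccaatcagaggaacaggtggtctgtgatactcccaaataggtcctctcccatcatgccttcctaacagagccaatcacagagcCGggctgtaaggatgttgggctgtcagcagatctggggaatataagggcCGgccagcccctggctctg

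In these stretches Zpbp2 held 19 CG sites and closed Sycp1 held 17. Grm8 held 29 and closed Kcnh1 held 17, while Casq1 held 3 and closed Ttn held 4. Open examples were chosen for most reads and closed ones for most RNA fragments, among class members with a matching RefSeq start. The RNA difference within a pair therefore follows from the choice and is not a result. Sycp1 had a mean of 114 recovered fragments per library and Zpbp2 2.75. Kcnh1 had 382 fragments and Grm8 6.75, while Casq1 and Ttn had 11.2 and 10.5.

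How silent these genes were depends on the length by which the RNA was divided. Multiplied by the genomic distance from gene start to gene end, low values of each library fell on whole multiples of 1 step: 76.8% to 77.8% of values worth up to 20 fragments were whole within 0.1 of a fragment, against 31.7% to 32.7% when multiplied by the exonic length of the GENCODE M21 annotation. The deposited FPK was thus divided by a length that includes introns, although the methods name the transcript length, and fragments per gene and library could be recovered from it. By this measure the genes had a median of 9.74 fragments per library, from 2.50 to 2926, over a median genomic span of 49562 bases. The span was 24436 bases at the median over all protein-coding genes. Divided by exonic length, the mean level of the 1969 genes that matched the annotation ran from 0.000677 to 1.49, with a median of 0.0203. The genes are therefore called barely expressed for their level per genomic kilobase only, and long genes among them can hold many fragments. Whether a fragment came from an exon or an intron is not known.

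The largest example is Dmd, which encodes dystrophin. It had 3329 and 3448 fragments in the low-MYC libraries and 2424 and 2504 in the high-MYC libraries, yet its mean was 0.00896 because the gene spans 2257272 bases. The lowest sum over the 4 libraries was 9.99 fragments among all protein-coding genes of the table. No protein-coding gene with a lower sum is listed. That every gene here had some RNA therefore follows from the listing and is not a result. Between 1910 and 1965 of the 1984 genes were above 0 in any 1 library.

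A promoter was counted as accessible when at least 10 reads had their midpoint within 1 kb of the start. By this count 263 of the 1984 promoters (13.3%; exact Clopper-Pearson interval at 95%, 11.8% to 14.8%) were accessible, and the other 1721 are called closed here. Intervals cover counting error only. Among all 10777 protein-coding genes away from other starts the background was 60.8%. No read was listed for 1713 promoters, 8 had 1 to 9, 15 had 10 to 29, and 248 had at least 30. The table holds reads of islands only, with a median of 144 reads per island, so the small number of promoters with few reads follows from the table and is not a property of the promoters. Accessible promoters had a median of 92 reads, with the middle of the distribution between 72 and 120 and a highest value of 646. Fibroblasts were sequenced in bulk, so a promoter open in few cells and one cut less in every cell cannot be told apart.

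The share of accessible promoters was higher with the RNA level used to choose the genes. It was 38.6% (766 of 1986) at means of 0.01 to 0.1, 74.9% at 0.1 to 1, and 88.1% (2837 of 3219; 87.0% to 89.2%) at means of at least 1. The interval of the barely expressed genes lay below those of all higher levels. On the exonic scale the same order was seen, from 6.79% (37 of 545; 4.82% to 9.24%) under 0.01 to 88.8% at 10 or more. For 6323 annotated protein-coding genes away from other starts, the RNA table had no row under their symbol. Of their promoters, 72 (1.14%, interval 0.892% to 1.43%) were accessible. These genes have no RNA value, and a gene listed under another name would be counted among them.

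**Figure D1:**
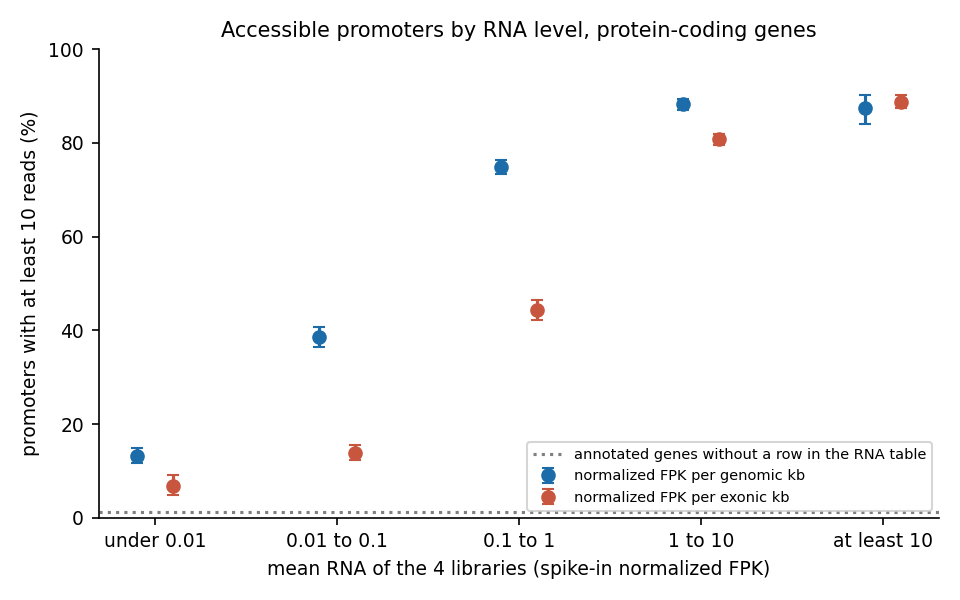
Percent of promoters with at least 10 TACh-seq reads within 1 kb of the start (y axis) by the mean spike-in normalized FPK of 4 RNA libraries (x axis), for protein-coding genes away from other starts, with exact 95% intervals as bars. Per genomic kilobase (blue) the share was 13.3% under 0.01 and 87.4% at 10 or more. Per exonic kilobase (red) it was 6.79% and 88.8%. The dotted line marks 1.14% for annotated genes without a row in the RNA table, which have no RNA value.

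Windows of the same width centred 10 kb upstream of the barely expressed genes held at least 10 reads in 86 of 1984 cases (4.33%). In the genes whose mean was 1 or more, the upstream windows reached 12.1%. The share at the starts was therefore above that of nearby DNA in the barely expressed genes, whereas in genes without an RNA row the upstream windows (2.58%) exceeded the starts (1.14%).

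Reads at accessible promoters were most frequent next to the start. In the accessible promoters the median position of the reads was 8.5 bases downstream of the annotated start at the median gene, and it lay within 250 bases of the start in 174 of 263 genes (66.2%). The same held for 84.1% of accessible genes with a mean of at least 1. The profile peaked 25 bases upstream of the start in both groups, at 7.22 reads per promoter and 50 bases in the barely expressed genes and at 13.7 in the expressed genes. The peak was thus at the same place in both groups, while the reads were more widely placed in the barely expressed genes: the quartiles of the median positions were -137 and 162 bases, against -67.5 and 112 bases. Their median of 92 reads compares with 158 at genes with a mean of at least 1. Accessible genes with a mean of 0.01 to 1 lay between the groups, with quartiles of -70 and 147 bases and 79.9% within 250 bases. Their median was 134 reads, and their profile peaked at the same place with 11.4 reads.

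**Figure D2:**
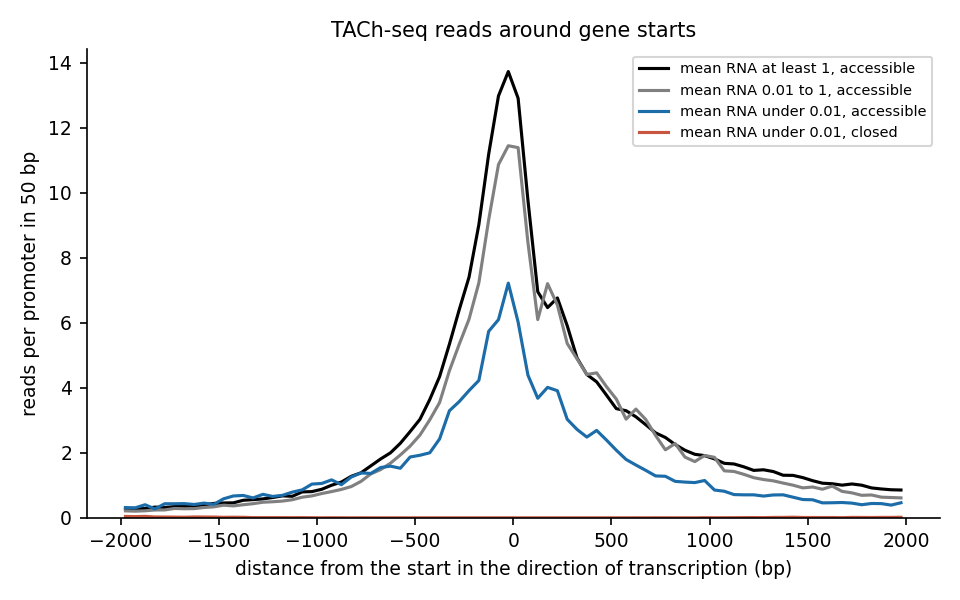
Mean number of TACh-seq reads per promoter in bins of 50 bases (y axis) by distance from the gene start in the direction of transcription (x axis, bases). Accessible barely expressed genes (blue) peaked at 7.22 reads and accessible genes with a mean RNA of at least 1 (black) at 13.7, both 25 bases upstream of the start, and closed promoters (red) lie along 0. Accessible genes with a mean RNA of 0.01 to 1 (grey) peaked at the same place with 11.4 reads.

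Among the barely expressed genes, those with more RNA fragments were more often accessible. Of 1017 genes with a mean under 10 fragments, 81 (7.96%; 6.38% to 9.80%) were accessible. The share was 11.7% at 10 to 30 fragments, 21.7% at 30 to 100, 34.2% at 100 to 300 and 38.5% (15 of 39; 23.4% to 55.4%) at 300 or more. Neighbouring intervals overlapped at the upper end and not between the lowest bin and those from 30 fragments on. Long genes were also more often accessible, at 20.5% of those spanning 300 kb or more and 8.85% of those under 10 kb, and span and fragment number go together here. On the X chromosome 3 of 70 promoters (4.29%; 0.893% to 12%) were accessible, against 13.6% (12.1% to 15.2%) elsewhere.

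**Figure D3:**
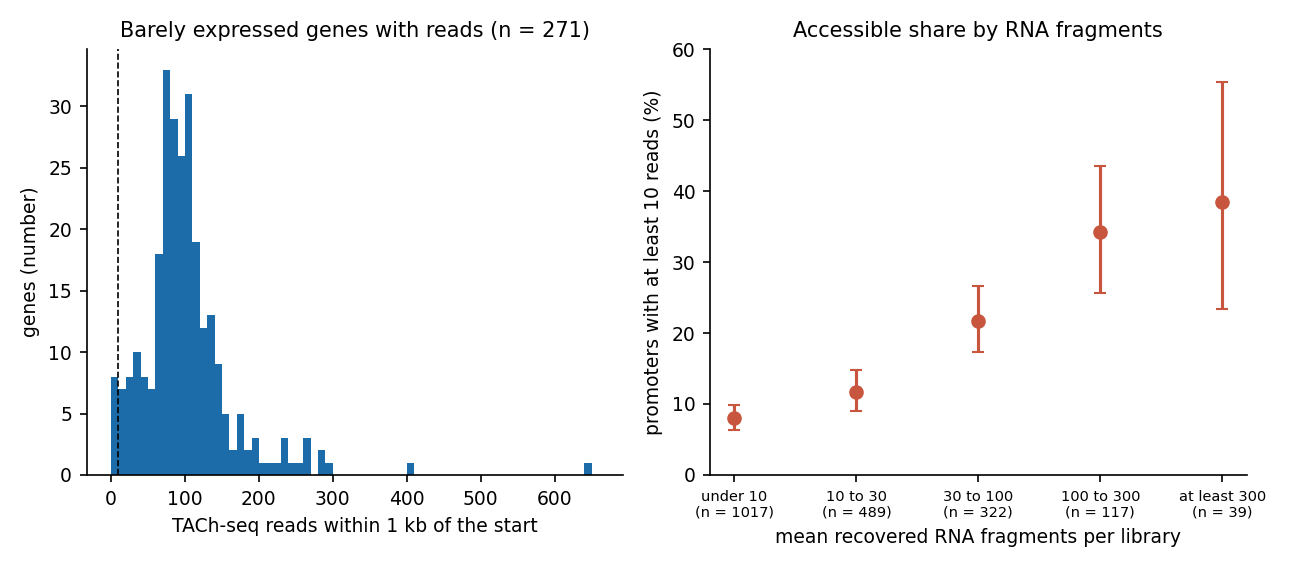
Left, number of barely expressed genes (y axis) by TACh-seq reads within 1 kb of the start (x axis, bins of 10 reads) for the 271 genes with any read. The dashed line marks 10 reads. Right, percent of promoters with at least 10 reads by mean recovered RNA fragments per library, with exact 95% intervals. The share runs from 7.96% under 10 fragments to 38.5% at 300 or more.

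The most heavily cut promoter was that of Camta1, a calmodulin-binding transcription activator, with 646 reads. Its start lies at position 151861877 of chromosome 4 (mm10, − strand). Its RNA came to 442 and 388 fragments in the low-MYC libraries and 372 and 410 in the high-MYC libraries, spread over 944555 bases, so its mean was 0.00312. Fbxo47, an F-box protein of meiotic cells, followed with 406 reads. It had 35, 38, 36 and 39 fragments in the 4 libraries, which did not separate low-MYC from high-MYC cells before the spike-in correction. The annotated start of Gm11630 lies 439 bases from that of Fbxo47, so that its reads cannot be assigned to 1 of the pair.

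Wwox, an oxidoreductase whose gene spans a common fragile site, had 297 reads and 557, 563, 621 and 574 fragments. Nhej1, a factor of DNA end joining, had 265 reads and 214, 217, 200 and 158 fragments, and on the exonic scale its level was 1.25. The exonic level of Wwox was 0.425. Over all protein-coding genes that level had a median of 2.48 and a lower quartile of 0.312, so both genes lay between these values, and above the median of 0.0203 of the barely expressed genes. Rfx3, a transcription factor of ciliated cells, had 244 reads and 316 to 360 fragments. Tbc1d4, which controls glucose transporter traffic, had 212 reads and 196 to 210 fragments.

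Other strongly cut promoters belonged to genes with little RNA on either scale. Catspere2, a subunit of the calcium channel of sperm, had 285 reads and 5.8, 4.0, 18.9 and 6.99 fragments. Gm20422, a predicted gene, had 265 reads and 9.67, 5.27, 0.0188 and 2.25 fragments. The authors' quantification can split reads between overlapping genes, and with values this far from whole numbers its RNA is uncertain. Sema5b, a semaphorin that guides axons, had 223 reads and 30 to 38 fragments. Kif6, a kinesin motor, had 234 reads and 49 to 58 fragments. The remaining promoters among the 15 with the most reads were those of Eml6 (282), Atp8a1 (263), Ccdc171 (254), Macrod2 (233) and Rhpn2 (231). The start of Gm15477 lies 370 bases from that of Atp8a1.

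Of the 545 genes also under 0.01 per exonic kilobase, 37 were accessible. These were low on both RNA scales but not without RNA. The 72 accessible promoters of genes without a row in the RNA table are not among them. The 37 genes were singled out after their values were seen. They had 12 to 171 reads. Trim9, a ubiquitin ligase of neurons, led with 171 reads and 7, 9, 13 and 6 fragments. The start of the annotated gene Gm32151 lies 153 bases from it. Grm8 followed with 170 reads and 3, 4, 6 and 14 fragments over 860060 bases, the lowest level per genomic kilobase of any accessible promoter (7.08e-05).

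The others of this group included Adamts17 (150 reads), a secreted metalloprotease, Dpf3 (140 reads), a subunit of the BAF chromatin remodelling complex, Celf6 (131 reads), an RNA-binding protein, and Ccdc150 (135 reads). Genes of cilia and flagella were among them, namely Spag6 (100 reads), Cfap46 (98 reads), Dnah9 (71 reads) and Dnah11 (62 reads). So were Dazl (62 reads), an RNA-binding protein of germ cells, Scrt1 (60 reads), a neuronal transcription repressor, and Otx1 (53 reads), a homeodomain factor of the forebrain. These examples were picked by eye from the 37 and no list of ciliary genes was counted.

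The converse also occurred. Among the 24 closed genes with at least 300 fragments, Dmd, Erc2 (1156 fragments), Ctnnd2 (807), Sorcs1 (666), Kcnma1 (636) and Pard3b (633) had 0 reads at the tabulated start and at every other annotated start. Erc2 is a scaffold of presynaptic active zones and Ctnnd2 a catenin of neurons. For Cdh18 and Nav3 the tabulated start had 0 reads, but another annotated start of the gene was accessible, with 116 reads for Cdh18. Of the 24 closed genes with at least 300 fragments, 5 (20.8%; 7.13% to 42.2%) had such an accessible alternative start, and of all 1721 closed genes 85 (4.94%). Counting any annotated start, 348 of the 1984 genes (17.5%) were accessible.

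**Figure D4:**
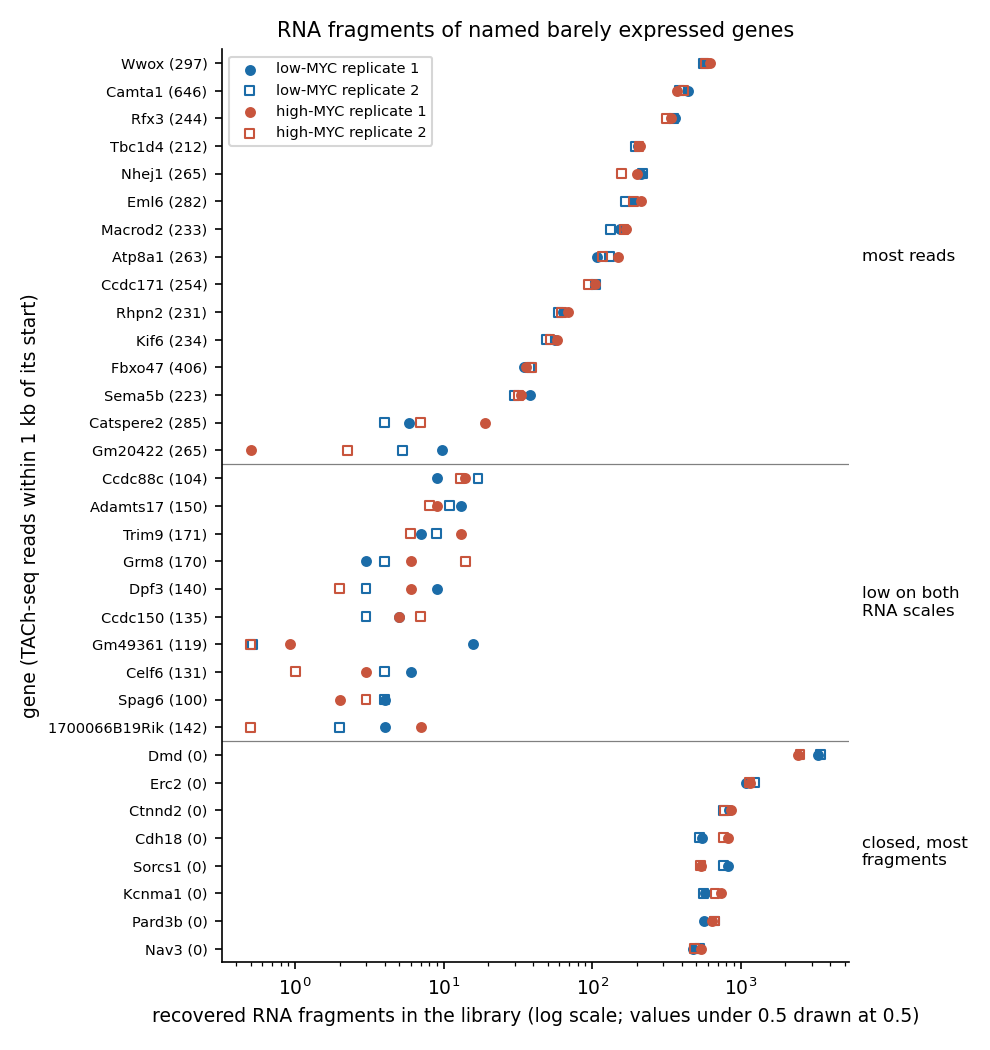
Recovered RNA fragments in each of the 4 libraries (x axis, log scale; values under 0.5 are drawn at 0.5) for named barely expressed genes (y axis, with TACh-seq reads within 1 kb of the start in brackets). The genes with most reads run from 4.30 mean fragments (Gm20422) to 579 (Wwox), accessible genes low on both RNA scales stay under 20 per library, and closed genes with most fragments (511 for Nav3 to 2926 for Dmd) had no read.

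Gene classes were drawn up by symbol for tissues other than fibroblasts. Together they held 362 of the 1984 genes, of which 26 (7.18%) were accessible, and the genes outside the classes were accessible in 14.6% of cases (237 of 1622). Of 17 classes with members, 9 had no accessible promoter. The class sizes are small and their intervals wide.

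Receptors of smell, taste and pheromones were closed throughout: 0 of 12 olfactory receptors and 0 of 7 vomeronasal, taste and trace amine receptors. Receptors of these classes that were not barely expressed were closed too, at 0 of 9 and 0 of 3. A count of 0 of 12 allows a share of up to 25%, taken here and below as 3 counts of the total, and the upper bound of the exact interval is 26.5%. Liver enzymes and secreted liver proteins (0 of 15, up to 20%), cytokines, chemokines and their receptors (0 of 21, up to 14.3%) and eye and hearing genes (0 of 10, up to 30%) had none either. Outside the barely expressed genes, these classes had 16 of 27, 34 of 74 and 3 of 8 accessible. Keratins (0 of 2), placental genes (0 of 6), the single S100-type gene and the single interferon were closed as well. Their counterparts outside the barely expressed genes had 3 of 8, 0 of 9, 3 of 16 and 2 of 2 accessible. Leukocyte surface receptors had 1 in 31, Btn2a2 (70 reads), a butyrophilin that restrains T cells, with 2, 3, 2 and 5 fragments. The window 10 kb upstream of Btn2a2 held 88 reads, more than its start. Of leukocyte surface receptors that were not barely expressed, 26 of 64 were accessible.

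Developmental transcription factors were accessible in 3 of 35 cases (8.57%; 1.80% to 23.1%). Foxo6, a forkhead factor, had 132 reads and 7, 9, 16 and 9 fragments. Pou2f2, the octamer-binding factor of B cells, had 84 reads and 17, 10, 35 and 28 fragments, and Otx1 had 53 reads. Of the 35 promoters, 24 were CpG-rich, including all 3 accessible ones, so that 21 CpG-rich promoters of this class were closed. Among factors of the same class that were not barely expressed, 55 of 113 (48.7%) were accessible.

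Signalling ligands of development were accessible in 3 of 18 cases (16.7%), namely Fgf1 (139 reads), Bmp6 (74 reads) and Wnt6 (30 reads). Bmp6, a bone morphogenetic protein, had 76 and 81 fragments in low-MYC and 139 and 126 in high-MYC libraries. Wnt6 had 2 to 5 fragments. In the brain classes the open promoters were few: 6 of 96 ion channels and neurotransmitter receptors (6.25%; 2.33% to 13.1%) and 3 of 53 neuronal adhesion and synapse genes (5.66%; 1.18% to 15.7%). Besides Grm8 the channels with most reads were Kcnt2 (71 reads) and Kcnh3 (63 reads), both potassium channels. Syt1, the calcium sensor of synaptic vesicles, had 112 reads and 46 to 73 fragments. Pcdh11x, a protocadherin on the X chromosome, had 86 reads and 309 to 409 fragments, and Opcml, a cell adhesion protein, had 68 reads and 17 to 20 fragments.

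Muscle and heart genes (4 of 15; 26.7%, 7.79% to 55.1%) and germ cell and testis genes (5 of 26; 19.2%, 6.55% to 39.4%) had the highest shares, with intervals that include the 13.3% of all barely expressed genes. Among the muscle genes, Casq1 had 103 reads and 7, 9, 15 and 14 fragments. Myoz3, a Z-disc protein, had 57 reads, and 44 in the window 10 kb upstream. Tnni3k, a kinase of heart muscle, had 48 reads. The germ cell genes with most reads were Catspere2, Zpbp2 (141 reads and 4, 1, 2 and 4 fragments) and Zpbp (117 reads). The start of Spata48 lies 315 bases from that of Zpbp. Cpa6, a carboxypeptidase with 173 reads and 281 to 332 fragments, was the single accessible gene of 13 digestive and pancreatic enzymes. Outside the barely expressed genes, 7 of 13 muscle genes, 22 of 38 germ cell genes and 1 of 13 digestive enzymes were accessible.

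CpG content separated the accessible from the closed promoters in part. A promoter was called CpG-rich when the 2 kb around its start had at least 50% GC and an observed/expected CpG ratio of at least 0.6. This held for 94 of 263 accessible promoters (35.7%; 29.9% to 41.9%) and for 326 of 1721 closed ones (18.9%; 17.1% to 20.9%), intervals that do not overlap. The median observed/expected ratio was 0.539 in accessible and 0.346 in closed promoters. Accessible genes with a mean of at least 1 were CpG-rich in 51.2% of cases (49.3% to 53.0%) and all protein-coding genes in 41.1%, so the accessible barely expressed promoters lay between the closed ones and those of expressed genes.

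Read the other way, 94 of 420 CpG-rich barely expressed promoters were accessible (22.4%; 18.5% to 26.7%) and 169 of the 1564 others (10.8%; 9.31% to 12.5%). In genes with a mean of at least 1 the same shares were 95.7% and 81.4%. CpG-rich sequence thus went with a larger accessible share in both, but 326 of 420 CpG-rich barely expressed promoters were closed. Among genes under 10 fragments the shares were 13.2% (8.37% to 19.5%) and 6.99% (5.38% to 8.91%), and among genes with at least 100 fragments 38.9% and 32.1%, with overlapping intervals in both pairs. The part of RNA level in the CpG difference was not otherwise tested.

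**Figure D5:**
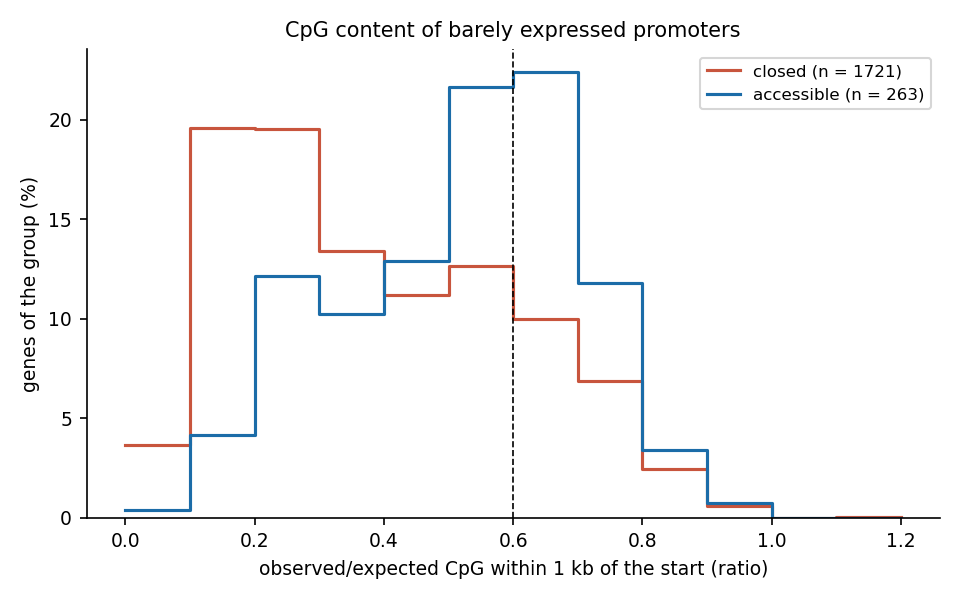
Percent of genes (y axis) by observed/expected CpG ratio within 1 kb of the start (x axis, bins of 0.1) for accessible (blue, n = 263) and closed (red, n = 1721) barely expressed promoters. The dashed line marks 0.6. The medians are 0.539 and 0.346, and the distributions overlap widely.

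Short motifs were counted on both strands from 250 bases before to 50 after the start. None of the 5 contains another, and GGGCGG and CACGTG contain a CG. GGGCGG, the core of the GC box, was present in 55.5% of accessible and 36.9% of closed barely expressed promoters, in 67.1% of accessible promoters of genes with a mean of at least 1, and in 56% of all protein-coding promoters. TATAAA, the TATA box, was found in 7.98% and 12.1% of accessible and closed promoters and in 8.34% of all. CCAAT was found in 39.9% and 34.9% (all 38.4%). CACGTG, the E-box that MYC can bind, was found in 7.22% and 6.51% (all 9.35%), and TGANTCA, the AP-1 site, in 9.13% and 7.90% (all 5.62%). These letters are a description of the sequence and not evidence of binding.

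The RNA of these genes in the sorted cells rests on few fragments. Of the 1984 genes, 478 had a mean of at least 30 fragments. Genes could reach this mean through the high-MYC libraries alone, so the counts that follow are a description and nothing is read from them. In 472 of these 478 genes (98.7%) both high-MYC libraries were above both low-MYC libraries. The background was 99.5% of 14402 genes of any kind at that depth. The spike-in correction counts a fragment of a high-MYC library for more (9.77 and 11.1 normalized FPK times bases, against 4.35 and 4.37), and the ratio of high-MYC over low-MYC means had a median of 2.59 for the barely expressed genes and 2.27 for all genes. With the libraries brought to a common median, 238 of the 478 (49.8%) were above without overlap, against 31.4% of all genes, and 72 (15.1%) were below, against 33.6%. The RNA values chose these genes, the libraries are technical replicates and no test was made.

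The median ratio was 2.49 in 125 accessible and 2.66 in 353 closed genes, and 5% to 95% of the ratios ran from 1.75 to 4.05 and from 1.63 to 7.28. The 5 genes with the highest ratios passed the minimum only through the high-MYC libraries and are given as values. Wdfy4 had 1 and 0 fragments in the low-MYC libraries and 121 and 83 in the high-MYC libraries. Cd180, a receptor of B cells and macrophages, had 2 and 2 against 87 and 87, and Dock2, which drives leukocyte migration, had 0 and 2 fragments against 114 and 121. Galnt6 had 0 and 2 against 78 and 64, and Atp6v0d2, a proton pump subunit of osteoclasts and macrophages, had 1 and 5 against 72 and 89. These 5 genes were named after their values were seen.

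Macrophage markers are given as values as well. Over the 6 markers (Lyz2, Csf1r, Adgre1, Ptprc, Cd68 and C1qa) the summed normalized FPK per genomic kilobase was 0.613 and 0.842 in low-MYC and 23.8 and 25 in high-MYC libraries, and Ptprc was itself one of the barely expressed genes. Their part in the ratios was not tested. Of the 10 fibroblast markers, all had a mean of at least 1. So did 2 of the 6 macrophage markers (highest 9.28) and 1 of the 5 neural markers (highest 4.39, 4 in the RNA table). The 4 endothelial and 4 epithelial markers were in the table with means of at most 0.217 and 0.177, and the 5 lymphocyte and 3 erythroid markers had no row there.

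In 2 of the 478 genes, Cdh19 and Sntg1, both high-MYC libraries were below both low-MYC libraries. Among all 14402 genes with a mean of at least 30 fragments this held for 12. Cdh19, a cadherin of Schwann cell precursors, had 51 and 70 fragments in low-MYC and 8 and 12 in high-MYC libraries, and Sntg1, a syntrophin, had 70 and 75 against 28 and 24. Both promoters were closed. Erbb3, a neuregulin receptor, had 50 and 56 against 14 and 25 fragments, and its promoter held 137 reads. Its normalized values overlapped between the groups.

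The FUBP1 peak list used here holds 166 peaks and covers chromosome 15 only, so binding on other chromosomes is not analysed here. None of the 84 barely expressed promoters of that chromosome overlapped a peak, including its 11 accessible ones. A count of 0 of 84 allows a share of up to 3.57%. Of 144 genes with a mean of at least 1 on the same chromosome, 8 promoters overlapped a peak. Peaks lay within the bodies of 7 of these 84 barely expressed genes, all closed at the tabulated start. Among them were Cdh18, Csmd3, Nell2, Pdzrn4, Rims2 and Spef2. Of the 144 expressed genes, 24 held a peak in the body. Gene length was not taken into account in these counts. Over all chromosomes, the median span was 49562 bases in barely expressed genes and 13331 in protein-coding genes whose mean reached 1. Whether body overlap differed beyond length was not tested. The paper also reports that the ChIP antibody cross-reacted to some degree with FUBP2.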

How the data were processed

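The authors aligned RNA reads with TopHat (mm10) after quality trimming, used Partek's E/M algorithm and deposited signal values, namely FPK over a spike-in score that stands for cell number. TACh-seq: the authors aligned reads with Bowtie2 and deposited read positions with a mapping score per read. FUBP1 peaks were called with SICER and give positions only. Tool versions are not given in the sources used here.

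Starts were Start on + and Stop on −, and reads were counted by midpoint. Fragments were recovered as value times genomic span divided by the step of each library. They came to 8.76e+07 to 9.63e+07 per library. Shares carry exact Clopper-Pearson intervals. The read table has no replicates, so promoter groups were not tested. CpG and motif shares were computed for every gene on the GRCm38.p6 genome, and the printed sequences came from the RefSeq promoter table (1460 of 1926 genes matched by symbol). Scripts ran in Python 3.11.15 with scipy 1.17.1, numpy 2.4.6 and pandas 2.3.3, and plots were drawn with matplotlib 3.10.9. The step was tested on simulated data.

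Named genes were the 15 with most reads and up to 3 accessible genes per class. The genes, classes and examples were chosen with earlier results of these data known. The design assumed values per TACh-seq library; WT and KOKD MEFs are not compared here. Alternatives covered the read minimum, window, read filters, RNA limit, neighbour distance, CpG criteria and libraries.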

Additional observations from a re-analysis of the deposited data

How the results depend on the processing

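The share of barely expressed promoters that were accessible stayed within the counting interval of 13.3% under most settings. It was 11.6% at a mean under 0.005 and 15.7% under 0.02. Under settings chosen after seeing the data it was 6.79% (545 genes under 0.01 per exonic kilobase), 8.49% (1154 genes chosen by a mean under 10 fragments in place of the FPK limit) and 17.5% (any annotated start). Leaving out each RNA library in turn gave 1866 to 2138 genes and 12.9% to 13.5%. CpG-rich promoters made up 51.7% of accessible and 28.6% of closed promoters over 500 bases each side. They made up 7.98% (21 of 263) and 5.06% (87 of 1721) at an observed/expected ratio of at least 0.75. Among those 1154 genes the shares were 23.5% (23 of 98) and 14.4% (152 of 1056). Accessible promoters had the larger share each time, but no intervals were computed for these settings. At a mean under 0.005 the digestive enzymes had 0 of 8. The other 394 recomputed values stayed within the counting interval of the value reported or, for numbers of genes, within 1.5 times it (1480 genes at a mean under 0.005 and 2527 under 0.02). Many of the 394 are shares of small classes with intervals too wide to leave easily, such as 0% to 84.2% for 2 keratins. Several settings also recount the same promoters, so this number is not a measure of robustness. A limit of 0 in all 4 libraries left no gene, which follows from the genes listed in the RNA table. No paired analysis was possible because no result comes from a test. Reads outside the islands and promoters cut in few cells cannot be seen at this depth. The libraries behind the read table are not named in its columns.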
